A study of Rattus norvegicus with 16 samples.

Results

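Rat pancreatic islets given AdNkx6.1, an adenovirus that expresses the homeodomain factor Nkx6.1, were compared with islets left without virus, across all genes on the array. The comparison rests on 10 of the 16 arrays of the study, 5 with AdNkx6.1 and 5 untreated, chosen by their titles. The other 6 arrays, from islets with an adenovirus carrying bacterial β-galactosidase (Adβgal), are shown beside them. All islets came from male Wistar rats aged 8 weeks and were cultured in RPMI medium with 10% FBS and 8 mM glucose. Virus was present for 18 h at the same stated approximate particle concentration in both virus groups, and islets were collected at 48 h. Untreated islets were cultured for the same 48 h. The labels name neither the promoter in the viruses nor the share of cells that took them up, and an islet holds several cell types. Within AdNkx6.1 against untreated, the virus and the delivered factor cannot be told apart. The test of the difference between the viruses is AdNkx6.1 against Adβgal. These 3 comparisons share arrays, so their values are set side by side and are not independent.

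Nkx6.1 is a homeodomain factor that in the adult islet marks beta cells, where it helps to maintain the genes of insulin production and glucose sensing and restrains programmes of other endocrine cells. The series title links it to beta cell proliferation and to Nr4a1 and Nr4a3, orphan nuclear receptors whose genes respond rapidly to growth and depolarising signals. Cells that detect viral nucleic acid make interferons, which act through STAT and IRF factors to switch on antiviral effector genes and antigen presentation by MHC class I.

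Values are log2 of the deposited probe set intensity, for 1 probe set per gene and 14217 genes. Changes are log2 differences between group means with their standard error (SE). A gene is called where the limma p-value, adjusted over all 14217 genes, is under 0.05. The gene lists were chosen with earlier results of these data known, so all list counts are descriptions and not independent support. The 10 arrays had median intensities between 264.8 and 296.2. Pairs of untreated arrays correlated at 0.996 to 0.997 over genes and pairs of AdNkx6.1 arrays at 0.991 to 0.998. The log2 difference between the 3′ and 5′ control probe sets of GAPDH, a sign of RNA integrity, was 0.96 to 1.3 untreated and 0.62 to 1.14 with AdNkx6.1, and its part in the results was not tested. Among the Adβgal arrays replicate 5 stood apart, at 2.8 beside 0.87 to 1.23 for the others, and at 5.35 beside 2.56 to 3.39 for the same difference of beta-actin, which was 3.08 to 3.88 untreated and 2.48 to 3.96 with AdNkx6.1. Pairs of Adβgal arrays correlated at 0.969 to 0.995. This array enters the fit and every Adβgal range given here. Without it the 158 named genes followed through the alternatives and called between AdNkx6.1 and untreated kept their call. Many list counts changed, and only some of these changes are given where they occur. The arrays are titled biological replicates. No label says which came from separate animals, so p-values measure the spread between these arrays. In whole islets, fewer cells of a type and less RNA per cell cannot be told apart. Detection calls were not used here, and the first quartile of the genes' mean log2 values was 6.99, and folds of dim genes are not exact.

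Of the 14217 genes, 2404 were higher with AdNkx6.1 than untreated (16.9%) and 1956 were lower (13.8%). Each list count of this comparison below is to be read beside these shares. With the values as deposited, the higher genes reached larger changes: 520 were called at least 2-fold higher and 153 at least 2-fold lower, and at 4-fold the counts were 107 and 4. The median change of all genes was -0.01. All 5 AdNkx6.1 arrays lay above all 5 untreated arrays in 2477 of the 14217 genes and below them in 2083. Groups that do not overlap were therefore common and do not set a gene apart. How the arrays were scaled moved the balance of the calls. Of the called genes 55.1% were higher as reported, 46.5% after quantile normalization once more (2130 higher, 2455 lower) and 37.5% with each array centred on its median (1894 higher, 3154 lower). The imbalance among genes called with at least a 1.5-fold change shrank too. It was 1222 higher and 585 lower as reported, 989 and 805 after quantile normalization once more, and 987 and 848 with centring. Of the 4360 called genes, none changed sign with either scaling. Adβgal against untreated gave 404 genes higher (2.84%) and 593 lower (4.17%). AdNkx6.1 against Adβgal gave 2354 higher (16.6%) and 1206 lower (8.48%). Without Adβgal replicate 5 these counts were 440 and 745 for Adβgal against untreated and 2637 and 1296 between the viruses, and AdNkx6.1 against untreated gave 2739 higher and 2330 lower. Leaving out Adβgal replicates 4, 5 and 6 together gave 245 and 307 for Adβgal against untreated.

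**Figure D1:**
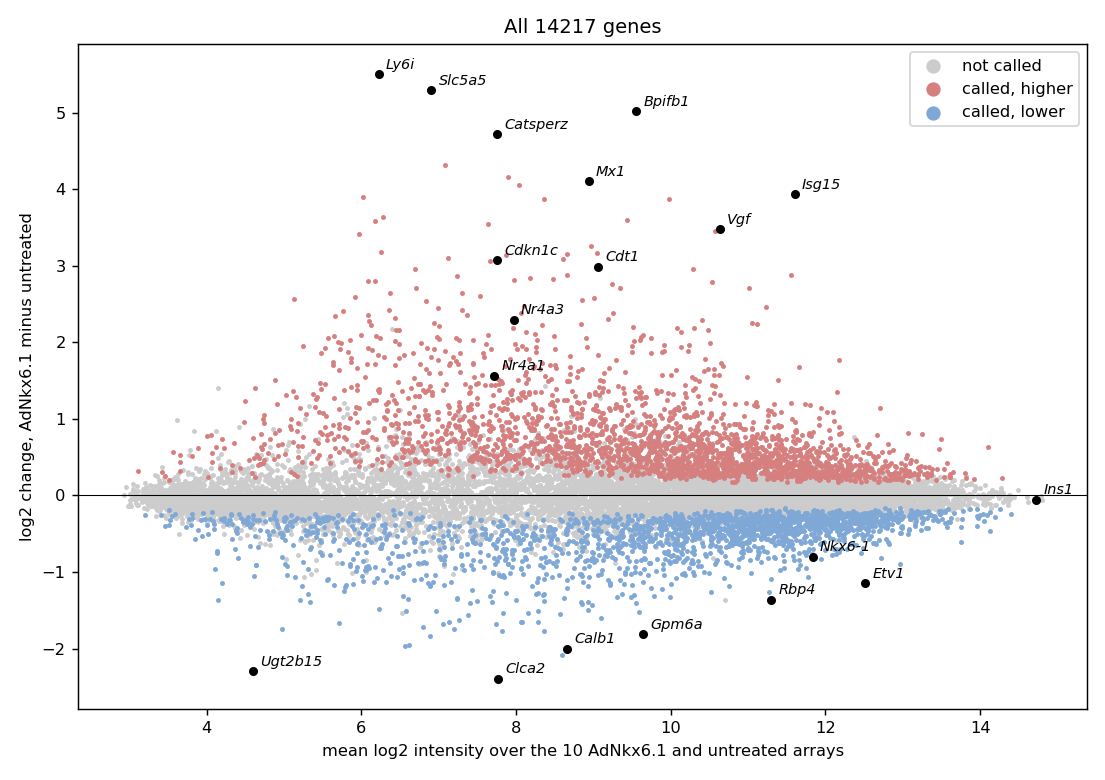
Mean log2 intensity over the 10 arrays (horizontal) against the log2 change of AdNkx6.1 minus untreated (vertical), with 1 point per gene for 14217 genes. Called genes are coloured by direction and selected genes are named. The largest rises reach 5.5 and the largest falls -2.39, and Ins1, among the brightest genes, lies near 0.

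The gene of the delivered factor was lower, not higher, on its probe set. Nkx6-1 read 12.09, 12.22, 12.25, 12.33 and 12.27 on the untreated arrays and 11.54, 11.65, 11.19, 11.41 and 11.37 on the AdNkx6.1 arrays. The groups did not overlap, and the fall was 1.74-fold (-0.8 ± 0.1, limma adjusted p = 2.5e-05). With Adβgal the lowest, median and highest values were 11.65, 11.92 and 12.13, a difference from untreated of -0.33 with adjusted p = 0.051 (-0.37 and 0.036 without Adβgal replicate 5), and AdNkx6.1 lay below Adβgal by -0.46 (adjusted p = 0.0023). Which species' Nkx6.1 the virus carried is not given in the sources used here, nor whether the probe set lies within it. The probe set therefore does not check the labels.

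Both receptors of the series title were higher. Nr4a1 read 6.85, 7.15, 6.82, 6.99 and 6.85 untreated and 8.56, 8.46, 8.5, 8.41 and 8.55 with AdNkx6.1. Every AdNkx6.1 array lay above every untreated array, a 2.96-fold rise (1.57 ± 0.18, limma adjusted p = 9.1e-06). With Adβgal it ranged from 6.26 to 7.52 around a median of 6.99. Nr4a3 read 6.79, 6.85, 6.46, 6.91 and 7.11 untreated and 8.72, 8.96, 9.61, 9.04 and 9.27 with AdNkx6.1, a 4.92-fold rise (2.3 ± 0.43, adjusted p = 0.00075). These groups did not overlap either, whereas the Adβgal arrays spread widely, from 5.07 to 8.07 around 6.93. AdNkx6.1 lay above Adβgal by 1.57 for Nr4a1 (adjusted p = 6.9e-06) and by 2.47 for Nr4a3 (adjusted p = 0.00034). Of the other probe sets of Nr4a3, 1 changed by 1.81 ± 0.25 and the dimmest, at a mean of 4.26, by 0.01 ± 0.1. Averaging its probe sets gave Nr4a3 a change of 1.37. The exact 2-sided permutation p over the 10 arrays was 0.0079 for Nkx6-1, Nr4a1 and Nr4a3 alike, the smallest that 5 against 5 arrays can give. The third member, Nr4a2, was not called (0.15 ± 0.18, adjusted p = 0.56; -0.03 after quantile normalization once more).

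**Figure D2:**
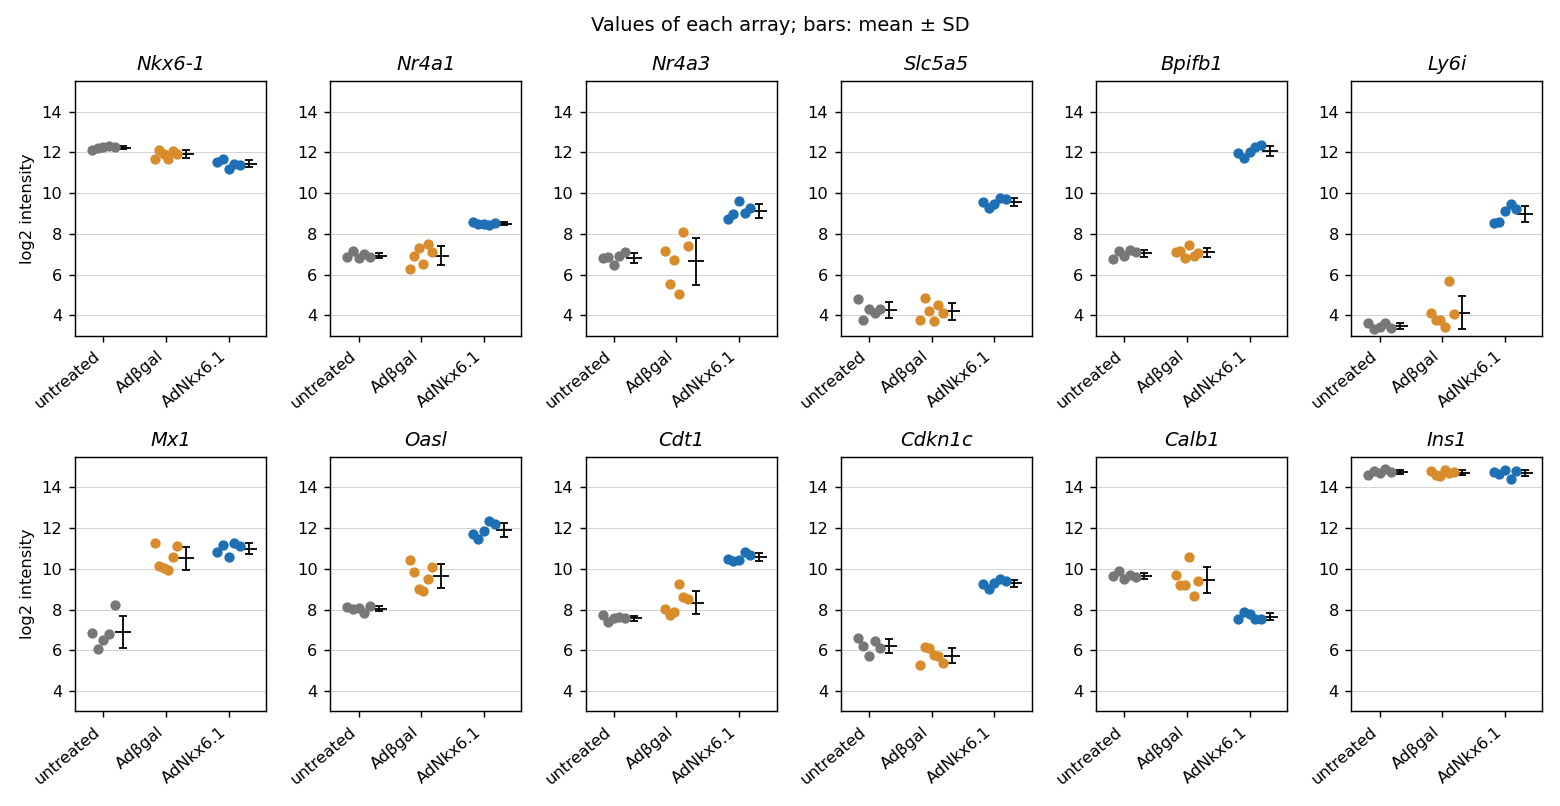
Log2 intensity (vertical, same scale in every panel) of 12 genes on every array of the 3 groups, with points for arrays and bars for mean ± SD. Slc5a5, Bpifb1 and Cdkn1c are high with AdNkx6.1 alone among the groups, Mx1 is high with both viruses, and Ins1 stays between 14.43 and 14.89 on all 16 arrays.

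The immediate early genes are transcription factors and feedback regulators induced within minutes of a stimulus. Of 37 listed members measured, 14 were higher and 3 lower, with a median change of 0.31. The study's title names Nr4a1 and Nr4a3, a further reason why the count is not independent of the list. Fosb, a subunit of the AP-1 factor, read 7.4, 7.22, 6.88, 7.09 and 6.75 untreated and 9.77, 9.77, 9.92, 9.85 and 10.15 with AdNkx6.1, a 7.1-fold rise (2.83 ± 0.31, limma adjusted p = 5.9e-06) without overlap. Its Adβgal arrays ran from 5.92 to 8.07 around 7.26. Other AP-1 and basic leucine zipper members rose too, Fosl1 6.11-fold and Maff 4.15-fold. Fos rose 2.07-fold, but by 0.38 in place of 1.05 with the mean of its probe sets. Egr1, a growth factor response gene, differed by 0.31 (adjusted p = 0.08), and by the same size with adjusted p = 0.0012 in the fit of the 10 arrays alone and 0.04 without Adβgal replicate 5. Klf4, a factor that restrains proliferation in many epithelia, fell 1.54-fold at adjusted p = 0.047, a call lost on leaving out any 1 of the 10 arrays other than AdNkx6.1 replicate 2 (0.056 to 0.1). The counts for Adβgal against untreated were 3 higher and 2 lower, and for AdNkx6.1 against Adβgal 14 and 3. With Adβgal replicate 5 left out, 18 were higher with AdNkx6.1 than untreated. The 3 lower over untreated became 1 without AdNkx6.1 replicate 3, 4 or 5 or untreated replicate 2 or 3.

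The 15 highest rises over untreated fell into genes that were also high with Adβgal and genes that were not. Ly6i, a surface protein gene of the Ly6 family, read 3.62, 3.31, 3.45, 3.62 and 3.38 untreated and 8.51, 8.6, 9.14, 9.44 and 9.2 with AdNkx6.1. That rise of 45.4-fold (5.5 ± 0.32, limma adjusted p = 6e-09) starts from values at the dim end of the scale. Slc5a5 encodes the sodium iodide symporter of the thyroid. It read 4.81, 3.75, 4.31, 4.1 and 4.33 untreated and 9.55, 9.28, 9.45, 9.76 and 9.73 with AdNkx6.1, a 39.2-fold rise (5.29 ± 0.21, adjusted p = 9.5e-11). Bpifb1, a secreted BPI-fold protein of airway epithelium, had a brighter untreated level, at 6.77, 7.16, 6.93, 7.22 and 7.11. With AdNkx6.1 it read 11.96, 11.7, 12.03, 12.26 and 12.36, a 32.5-fold rise (5.02 ± 0.14, adjusted p = 1.4e-12). Catsperz, a subunit gene of the sperm calcium channel, rose 26.3-fold from 5.39 ± 0.11 to 10.11 ± 0.47 (SD, n = 5 each). The steroid dehydrogenase gene Hsd17b2 rose 14.9-fold, the fibrinogen chain gene Fga 12.5-fold and the hair follicle protein gene Tchh 12-fold. The other probe set of Fga rose by 1.69 ± 0.11 against 3.64 ± 0.3. For none of these 7 genes did AdNkx6.1 and untreated arrays overlap, which adds no support, since they were picked by the size of this same change. Their values with Adβgal differed from untreated by -0.09 to 0.66 and were not called, and AdNkx6.1 against Adβgal gave rises of 3.64 to 5.36 (adjusted p from 8.4e-13 to 1.7e-07).

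Genes usually expressed in other epithelia were collected in a list of 24 measured members that earlier results of these data helped to choose, so its count is a description. Of them 14 were higher and 0 lower, with a median of 0.64. Beyond those above, Galnt6, an enzyme that starts mucin-type glycosylation, rose 11.6-fold (3.54 ± 0.31) and Muc1, a membrane mucin, 2.73-fold. With Adβgal 1 member was called higher and 0 lower, and 13 were higher and 2 lower in AdNkx6.1 against Adβgal. Without Adβgal replicate 5 the counts were 0 and 1, the latter Galnt6 at -1.12, and 14 and 0. Vgf, the precursor gene of granule neuropeptides, also rose. It read 9.11, 8.68, 9.06, 8.66 and 8.97 untreated and 12.32, 12.2, 12.46, 12.42 and 12.49 with AdNkx6.1. The 11.2-fold rise (3.48 ± 0.17, limma adjusted p = 1.5e-09) had no counterpart with Adβgal, at 8.02 to 9.26 around 8.87.

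Prm1, a protamine gene of sperm, is given because earlier results of these data showed it high with the control virus. It read 3.75, 3.97, 3.45, 4.09 and 3.99 untreated and 6.43, 6, 6.35, 6.71 and 6.58 with AdNkx6.1, a 5.92-fold rise (2.56 ± 0.2, limma adjusted p = 2e-07). With Adβgal its lowest, median and highest values were 11.69, 12.34 and 12.73.

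The other 8 of the 15 highest rises belonged to the antiviral response, and all 8 were high with Adβgal too. Mx1, an antiviral GTPase, read 6.87, 6.08, 6.49, 6.8 and 8.21 untreated and 10.82, 11.17, 10.58, 11.26 and 11.13 with AdNkx6.1, a 17.2-fold rise (4.1 ± 0.34, limma adjusted p = 2.8e-07). Its Adβgal arrays ran from 9.95 to 11.26 around 10.36, and AdNkx6.1 differed from them by 0.48 (adjusted p = 0.31). Oasl, a protein gene related to the oligoadenylate synthetases that activate RNA decay, behaved differently. It read 8.12, 8.02, 8.07, 7.84 and 8.15 untreated, 8.92 to 10.43 around 9.69 with Adβgal, and 11.71, 11.48, 11.83, 12.33 and 12.21 with AdNkx6.1. Its 14.7-fold rise over untreated (3.87 ± 0.25, adjusted p = 2.1e-08) exceeded that with Adβgal by 2.28 (adjusted p = 3.5e-06). Isg15, a ubiquitin-like modifier, rose from 9.64 ± 0.42 to 13.57 ± 0.29, and Ddx60, an RNA helicase gene, from 6.01 ± 0.5 to 10.07 ± 0.46. These and the synthetase gene Oas1a (14.7-fold) were higher with AdNkx6.1 than with Adβgal by 1.04 to 1.25 (adjusted p from 0.012 to 0.04). For Oas1a that call was lost without Adβgal replicate 5 (1, adjusted p = 0.072). Slfn4, Ifit3 and Mx2 rose 19.9-fold, 18-fold and 12.2-fold, and their AdNkx6.1 and Adβgal values differed by -0.29 to 0.63 (adjusted p from 0.18 to 0.64). The other probe set of Slfn4 stayed dark, at a change of -0.03, so the mean of both was 2.14.

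Untreated replicate 5 stood above the other untreated arrays in these genes, at 8.21 for Mx1, 6.95 for Ifit3 and 9 for Mx2. Without it the changes were 4.43 for Mx1, 4.45 for Ifit3, 3.95 for Mx2, 4.09 for Oas1a and 4.52 for Slfn4, all still called. The mean of the antiviral effector list, relative to the untreated mean, was 0.26 on that array and -0.16 to 0.01 on the other untreated arrays. On the AdNkx6.1 arrays this mean was 1.5 to 2.1, and on the Adβgal arrays 0.92 to 1.86.

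Of 38 measured antiviral effectors, 36 were higher with AdNkx6.1 and 0 lower, with a median change of 1.45 beside -0.01 for all genes. With Adβgal 24 were higher and 0 lower (median 0.91), and 12 were higher and 0 lower in AdNkx6.1 against Adβgal (median 0.46). Leaving out Adβgal replicate 5 made these higher counts 26 and 10. Bst2, which tethers budding virus to the membrane, rose 7.79-fold, Rtp4, an antiviral chaperone-like gene, 8.94-fold, and Rsad2, which makes a chain-terminating nucleotide, 6.57-fold. Igtp, an immunity-related GTPase, rose 2.99-fold from 9.83 ± 0.16 to 11.41 ± 0.21, differed by 0.35 with Adβgal, and was higher than Adβgal by 1.23. The members that were not called were Sp110 (0.19) and Ifitm1 (-0.02 ± 0.1), a membrane protein gene bright on all arrays.

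Among the sensors and signalling factors upstream, 12 of 28 were higher and 1 was lower (median 0.29), the last not without AdNkx6.1 replicate 4 or untreated replicate 2. Irf7, the factor that amplifies interferon production, rose 11-fold and read 8.84, 8.71, 8.64, 8.72 and 9.29 untreated and 12.33, 12.19, 11.83, 12.67 and 12.46 with AdNkx6.1. It ran from 10.91 to 12.39 with Adβgal, and the difference between the viruses was 0.69 (limma adjusted p = 0.037), no longer called without Adβgal replicate 5 (0.68, adjusted p = 0.05). The cytoplasmic RNA sensors Ifih1 and Rig1 rose 2.37-fold and 2.19-fold, their regulator Dhx58 2.83-fold, the nucleic acid sensor Zbp1 2.92-fold and Stat2 2.65-fold. The interferon gene Ifnb1 itself was dim in both groups, at 5.05 ± 0.1 and 4.9 ± 0.22, and was not called. With Adβgal 9 of the 28 were higher and 1 was lower, and in AdNkx6.1 against Adβgal 11 and 0.

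In MHC class I antigen processing, 13 of 17 members were higher and 0 lower (median 0.8). Psmb8, a catalytic subunit of the immunoproteasome, read 11.42, 11.2, 11.23, 11.21 and 11.38 untreated and 12.94, 12.84, 13.05, 13.32 and 13.12 with AdNkx6.1, a 3.4-fold rise (1.77 ± 0.15, limma adjusted p = 3.7e-07) without overlap. The class I gene RT1-S3 rose 4.56-fold, the subunit gene Psmb9 3.19-fold and the peptide transporter gene Tap1 3.08-fold, the last by 0.83 in place of 1.62 with the mean of its probe sets. RT1 genes are close relatives, so their probe sets may share signal. B2m, the invariant light chain, was already bright (13.9 ± 0.02 untreated) and not called, at 0.09 ± 0.05, but was called at 0.22 with the mean of its probe sets and at 0.13 (adjusted p = 0.05) after quantile normalization once more. With Adβgal 5 members were higher and 0 lower, and 11 were higher and 0 lower in AdNkx6.1 against Adβgal. Leaving out Adβgal replicate 5 made these higher counts 7 and 12.

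**Figure D3:**
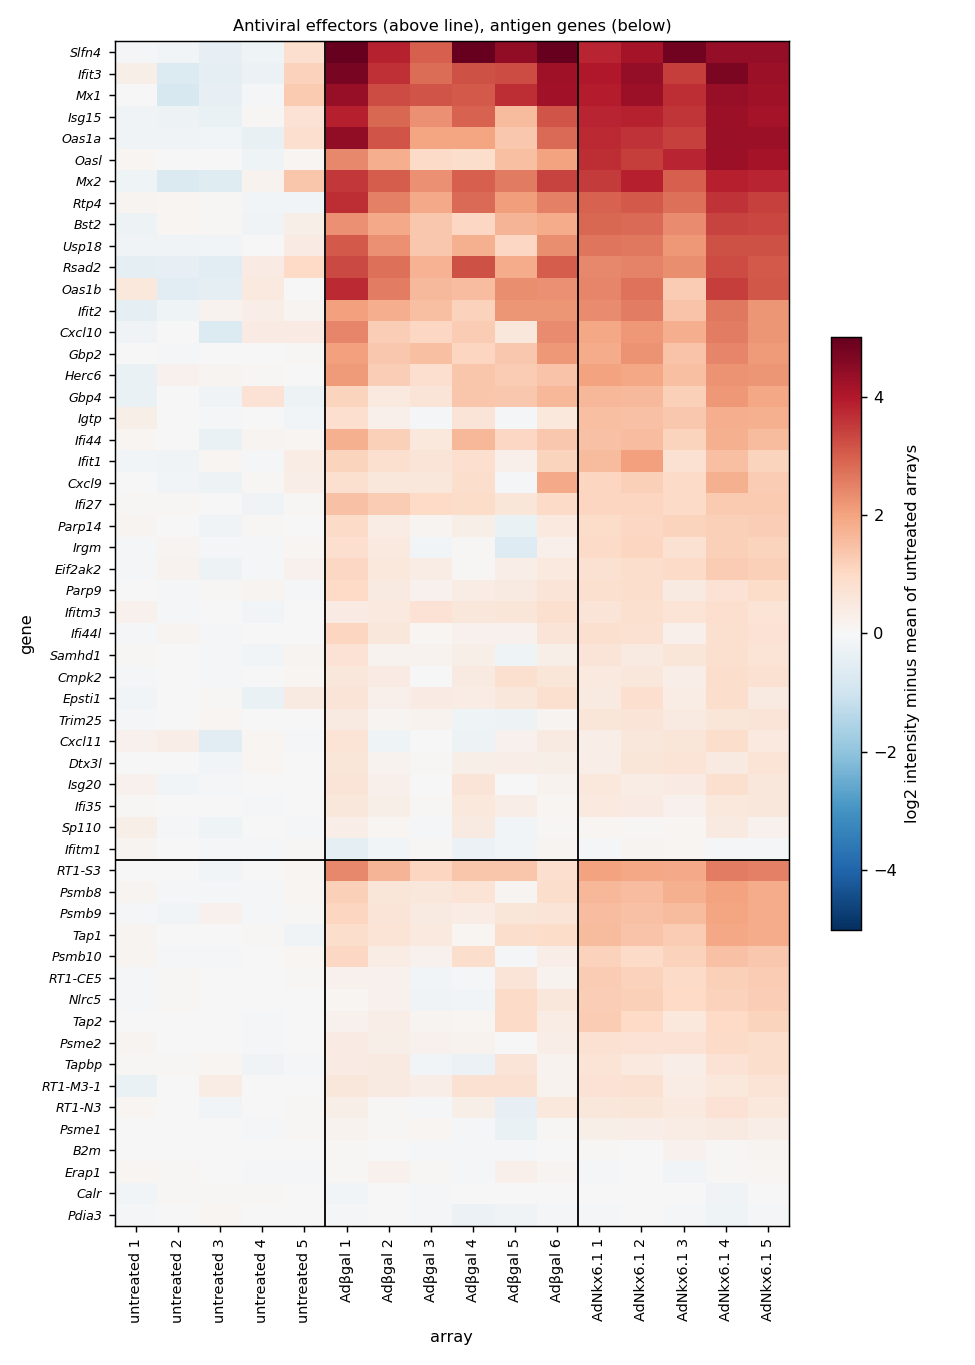
Log2 intensity minus the mean of the untreated arrays (colour), for the 38 antiviral effectors (above the line) and 17 antigen processing genes (below), on all 16 arrays (columns). Most effectors are red with both viruses, antigen processing genes such as Psmb8 and RT1-CE5 are redder with AdNkx6.1, and untreated replicate 5 is slightly red in the uppermost genes.

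The interferon-stimulated response element, bound by IRF and STAT complexes, contains the letters GAAANNGAAA. In the 250 bases before the RefSeq gene start (build GRCr8), these letters, on either strand, stood in 19 of the 31 antiviral effectors with a promoter in the table used here, in 8 of 14 antigen processing genes and in 3.61% of 27457 genes. The 9 motifs searched were chosen after the values were seen, and a match describes letters, not a bound site. The match nearest the start is shown for 6 members that rose, with the letters of that match, or their reverse complement, in capitals, and any match overlapping it in lower case:

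Ifit3: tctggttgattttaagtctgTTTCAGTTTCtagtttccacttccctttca
Oas1a: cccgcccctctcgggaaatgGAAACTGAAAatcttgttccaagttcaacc
Rsad2: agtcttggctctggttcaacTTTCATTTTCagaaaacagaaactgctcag
Bst2: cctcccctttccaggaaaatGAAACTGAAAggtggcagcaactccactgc
Igtp: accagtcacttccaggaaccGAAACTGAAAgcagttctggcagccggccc
Tap1: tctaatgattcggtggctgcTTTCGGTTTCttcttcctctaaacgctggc

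Each is written 5′ to 3′ on the strand of its gene. Ifit3 lies at chr1:241527262-241527311, plus strand, Oas1a at chr12:41330411-41330460, plus strand, and Rsad2 at chr6:48788238-48788287, minus strand. Bst2 lies at chr16:18255063-18255112, minus strand, Igtp at chr10:42874924-42874973, plus strand, and Tap1 at chr20:4668635-4668684, minus strand. Ifit3 and Oas1a, which rose 18-fold and 14.7-fold, have that match 35 and 26 bases before the start, and Igtp, which rose 2.99-fold, 94 bases before it.

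Genes of DNA replication and mitosis were mostly higher with AdNkx6.1. Of 39 members of DNA replication and S phase, 33 were higher and 0 lower, with a median of 0.71. With Adβgal 10 were higher and 1 lower, and in AdNkx6.1 against Adβgal 27 and 0, or 30 and 0 without Adβgal replicate 5. Cdt1, which loads the replicative helicase at origins, read 7.73, 7.37, 7.56, 7.64 and 7.56 untreated, 7.72 to 9.25 around 8.26 with Adβgal, and 10.48, 10.36, 10.43, 10.83 and 10.7 with AdNkx6.1. That was a 7.93-fold rise over untreated (2.99 ± 0.22, limma adjusted p = 9.5e-08) and 2.23 above Adβgal. The helicase subunit gene Mcm5 read 8.71, 8.71, 8.72, 8.29 and 8.54 untreated and 10.74, 10.62, 10.74, 10.69 and 10.63 with AdNkx6.1, a 4.26-fold rise (2.09 ± 0.13, adjusted p = 1.2e-08). In both genes the groups were far apart. Thymidine kinase Tk1 rose 4.93-fold, and its other probe sets by 1.92 ± 0.13 and 2.5 ± 0.32. Mcm6 and Mcm2 rose 3.23-fold and 2.17-fold, while the polymerase clamp Pcna, bright at 12.95 ± 0.07 untreated, rose only 1.2-fold (adjusted p = 0.012). The mean of the list relative to untreated was 0.87 to 0.98 on the AdNkx6.1 arrays, 0.07 to 0.58 on the Adβgal arrays and -0.04 to 0.04 untreated, so the groups did not overlap.

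In G2 and mitosis 30 of 43 members were higher and 0 lower (median 0.63), and 23 after quantile normalization once more. Aurka, the kinase of spindle poles, read 7.61, 7.66, 7.3, 7.73 and 7.59 untreated and 9.17, 9.12, 9.35, 9.4 and 9.4 with AdNkx6.1, a 3.27-fold rise (1.71 ± 0.09, limma adjusted p = 2.6e-09) without overlap. The ubiquitin ligase gene Ccnf rose 2.74-fold, the transcription factor gene Mybl2 2.47-fold, Melk 2.37-fold and Mki67, the proliferation antigen, 2.09-fold from 9.12 ± 0.14 to 10.18 ± 0.2. Cdk1, the mitotic kinase, rose 1.71-fold. Foxm1, a regulator of this programme, was not called (0.1 ± 0.13; -0.08 after quantile normalization once more). With Adβgal 1 member was higher and 0 lower, and in AdNkx6.1 against Adβgal 24 and 0. With Adβgal replicate 5 left out, AdNkx6.1 was higher in 33 against untreated and in 28 against Adβgal. The list mean was 0.51 to 0.9 on the AdNkx6.1 arrays, with AdNkx6.1 replicate 3 highest, and -0.02 to 0.38 on the Adβgal arrays.

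Among the cyclins, G1 kinases and E2F factors that drive entry into S phase, 10 of 19 were higher and 1 lower (median 0.52), against 1 and 2 with Adβgal and 13 and 1 in AdNkx6.1 against Adβgal. Without AdNkx6.1 replicate 3 or Adβgal replicate 5, 2 were lower than untreated. Cdk2, the kinase partner of cyclin E, read 8.43, 8.41, 8.59, 8.26 and 8.4 untreated and 10.64, 10.6, 10.45, 10.58 and 10.81 with AdNkx6.1, a 4.58-fold rise (2.2 ± 0.18, limma adjusted p = 3.2e-07). Its second probe set rose by 2.44 ± 0.17. The cyclin E gene Ccne1 rose 3.41-fold, and the late repressors E2f8 and E2f7 4.7-fold and 2.88-fold. Of the D cyclins, Ccnd1 and Ccnd2, which adult beta cells use, differed by 0.18 and 0.15 and were not called. Another D cyclin, Ccnd3, was higher by 0.58 ± 0.07. Myc was not called (-0.05 ± 0.18), and its sign turned in some leave-one-out fits.

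The E2F site was searched as TTTGGCGC, TTTGCCGC, TTTCGCGC and TTTCCCGC on either strand. It stood in 10 of 35 replication genes with a promoter in the table and in 1.91% of all 27457. The cell cycle homology region of mitotic promoters, TTTGAA, stood in 19 of 37 mitosis genes and in 17.2% of all, and the CCAAT box in 29 of 37 and in 36.1%. The CCAAT box was not particular to mitosis genes. It also stood in 13 of 15 genes of cholesterol synthesis, 11 of 15 of fatty acid synthesis and 22 of 32 of the unfolded protein list. The nearest match before the start is shown in capitals, on either strand, for 3 replication and 3 mitosis genes that rose:

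Mcm2: ggtcacgtgacccggttttcGCGCGAAAac
Mcm5: gacgaactcccaggttggttTTTCCCGC
Mcm6: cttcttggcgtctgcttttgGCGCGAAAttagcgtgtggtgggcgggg
Ccnf: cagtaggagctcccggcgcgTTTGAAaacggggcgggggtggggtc
Mki67: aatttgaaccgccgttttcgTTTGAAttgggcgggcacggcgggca
Cdk1: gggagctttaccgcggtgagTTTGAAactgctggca

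The windows lie at chr4:122918095-122918124, minus strand for Mcm2, chr19:13488785-13488812, plus strand for Mcm5, and chr13:42404460-42404507, minus strand for Mcm6. Those of Ccnf, Mki67 and Cdk1 lie at chr10:13783726-13783771, minus strand, chr1:199952667-199952712, minus strand and chr20:19265257-19265292, plus strand. A homeodomain core, TAATTA, stood in 0 of 12 promoters found for the 15 highest rises, in 1 of 11 found for the 15 largest falls and in 5.35% of all genes. A missing match says only that the letters are not in this window.

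Inhibitors of the cell cycle were among the genes that rose. Cdkn1c, which encodes the kinase inhibitor p57, read 6.59, 6.23, 5.72, 6.45 and 6.1 untreated and 9.23, 9.02, 9.29, 9.52 and 9.38 with AdNkx6.1. The rise was 8.41-fold (3.07 ± 0.18, limma adjusted p = 1.1e-08), and with Adβgal the gene ran from 5.26 to 6.16 around 5.74. Cdkn1a, which encodes p21, read 11.59, 11.47, 11.57, 11.36 and 11.34 untreated and 12.83, 12.77, 12.84, 12.81 and 12.84 with AdNkx6.1, a 2.55-fold rise (1.35 ± 0.07, adjusted p = 2.3e-09). Neither gene's groups overlapped. The stress gene Gadd45b rose 4.77-fold, whereas Cdkn1b, which encodes p27, was not called (-0.23 ± 0.11) and Cdkn2c fell 1.32-fold. In all, 6 of 18 inhibitors were higher and 2 lower (median 0.03), with 1 higher and 0 lower with Adβgal and 6 and 0 in AdNkx6.1 against Adβgal. The lower count was 5 with arrays centred on their medians, 4 without AdNkx6.1 replicate 3 or Adβgal replicate 5, and 1 without AdNkx6.1 replicate 4 or 5 or untreated replicate 2, 3 or 5. Of 17 p53 targets, 7 were higher and 2 lower, with the death receptor gene Fas 2.36-fold higher, the apoptosome gene Apaf1 2.16-fold and Pidd1 1.91-fold. Fas rose by 0.63 in place of 1.24 with the mean of its probe sets. Mdm2, the feedback regulator of p53, differed by 0.14 ± 0.08 and was not called, though it was at 0.35 with the mean of its probe sets, and Sesn1 fell 1.58-fold. Nucleolar genes, which serve ribosome production, changed by small amounts (median 0.16), with Bop1 1.46-fold higher, Nop16 1.44-fold and Fbl 1.43-fold. Of 26 members 8 were higher and 0 lower, beside 16.9% and 13.8% of all genes.

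**Figure D4:**
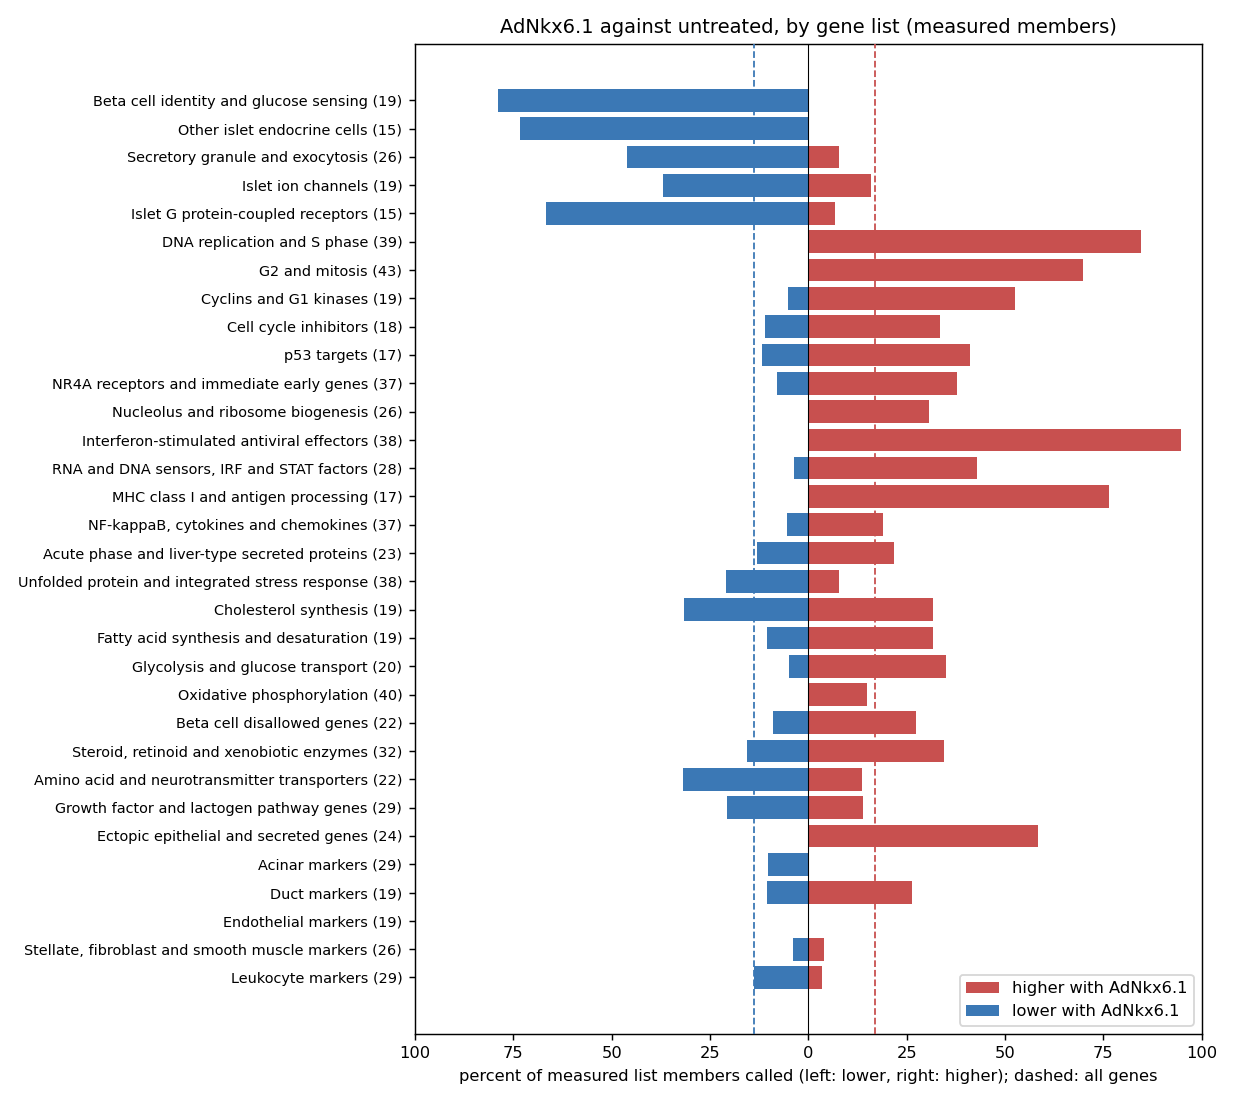
Percent of the measured members of each of 32 gene lists (number in brackets) called higher (right, red) or lower (left, blue) with AdNkx6.1 than untreated. Dashed lines mark the shares of all genes, 16.9% higher and 13.8% lower. Antiviral effectors reach 36 of 38 on the right, and beta cell identity genes reach 15 of 19 on the left.

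The largest falls were smaller than the largest rises. Clca2, a membrane regulator of chloride channels, read 9.13, 8.96, 8.62, 9.16 and 8.94 untreated and 6.68, 6.65, 6.89, 6.31 and 6.31 with AdNkx6.1. The fall was 5.25-fold (-2.39 ± 0.17, limma adjusted p = 5.7e-08), and with Adβgal values ran from 7.67 to 8.59 around 8.21, between the others. Lrrn3, a neuronal leucine-rich repeat protein gene, read 9.49, 9.75, 9.73, 9.68 and 9.54 untreated and 7.76, 7.79, 7.87, 7.2 and 7.17 with AdNkx6.1, a 4.22-fold fall. Calb1, a calcium-buffering protein, read 9.63, 9.88, 9.49, 9.68 and 9.61 untreated and 7.55, 7.89, 7.79, 7.53 and 7.52 with AdNkx6.1, a 4.01-fold fall (-2 ± 0.25, adjusted p = 1.6e-05). None of the 3 genes' groups overlapped, which adds no support, since they were picked by the size of this same change. The glucuronosyltransferase gene Ugt2b15 fell 4.9-fold to 3.45 ± 0.3, at the dim end of the scale. The neuronal membrane gene Gpm6a fell 3.51-fold, Olfm3 3.56-fold, Elmod1 3.41-fold, the orphan receptor gene Gpr85 3.34-fold and the tachykinin receptor gene Tacr3 3.2-fold. Coch and the WNT antagonist gene Sfrp4 fell 3.35-fold and 3.28-fold. With the mean of its probe sets, of which the dimmer did not move, Sfrp4 changed by -0.84 in place of -1.72. Serpinb9b fell 3.86-fold at adjusted p = 0.029, a call lost without AdNkx6.1 replicate 3, 4 or 5 or untreated replicate 2, 3 or 5 (adjusted p from 0.056 to 0.08). Of the 15 largest falls, Clca2, Coch and Sfrp4 were also lower with Adβgal than untreated, by -0.78 to -1.39, and 13 were lower with AdNkx6.1 than with Adβgal. Sfrp4 (-0.32) and Serpinb9b (-1.25) were not.

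Beta cell identity genes fell together but by little. Of 19 measured, 15 were lower and 0 higher, with a median of -0.49. With Adβgal 6 were lower and 0 higher (median -0.23), and in AdNkx6.1 against Adβgal 3 and 0 (median -0.19), or 6 and 0 without Adβgal replicate 5. Neurod1, a factor that activates the insulin genes, read 12.32, 12.59, 12.4, 12.52 and 12.55 untreated and 11.46, 11.85, 11.95, 11.51 and 11.74 with AdNkx6.1, a 1.71-fold fall (-0.78 ± 0.1, limma adjusted p = 2.5e-05). With Adβgal it ran from 11.8 to 12.15 around 11.94, overlapping the AdNkx6.1 arrays, and the viruses differed by -0.26 (adjusted p = 0.056). Nkx2-2, a homeodomain factor of islet development, read 12.25, 12.26, 12.07, 12.21 and 12.25 untreated and 11.59, 11.6, 11.21, 11.4 and 11.42 with AdNkx6.1, a 1.7-fold fall, and was lower with Adβgal by -0.55. Pdx1, the master factor of the beta cell, read 12.75, 12.35, 12.28, 12.57 and 12.53 untreated and 11.99, 11.79, 11.9, 12.19 and 11.96 with AdNkx6.1. Its fall of 1.45-fold (-0.53 ± 0.1, adjusted p = 0.00083) exceeded that with Adβgal by -0.31 (adjusted p = 0.027). Pax6 fell 1.42-fold, the glucose transporter gene Slc2a2 1.34-fold and Mafa 1.19-fold. Isl1 fell 1.64-fold at adjusted p = 0.047 and Iapp, the amylin gene, 1.13-fold at 0.048. Both calls were lost on leaving out any of the 10 arrays, at adjusted p from 0.052 to 0.11, and with quantile normalization once more. The prolactin receptor gene Prlr fell 1.67-fold (adjusted p = 0.022), a call lost without untreated replicate 1 (0.057).

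The insulin genes were not called. Ins1 read 14.62, 14.79, 14.72, 14.89 and 14.74 untreated and 14.75, 14.65, 14.84, 14.43 and 14.79 with AdNkx6.1, and the groups overlapped (-0.06 ± 0.09, limma adjusted p = 0.67). Ins2 likewise differed by -0.06 ± 0.07 (adjusted p = 0.56) and the glucagon gene Gcg by -0.02 ± 0.08 (adjusted p = 0.9). All 3 lay near the top of the deposited range, whose highest intensity was 35764.6, on every array, so the defining hormone genes of the labelled tissue were present. A p above the threshold does not show equal levels.

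The genes of other islet endocrine cells held larger falls than the beta cell list. Of 15 measured, 11 were lower and 0 higher (median -0.72), 2 and 0 with Adβgal, and 9 and 0 in AdNkx6.1 against Adβgal (median -0.53). Rbp4, a retinol carrier enriched in delta cells, read 12.13, 12.03, 11.9, 12.01 and 11.85 untreated and 10.81, 10.82, 10.63, 10.29 and 10.54 with AdNkx6.1, a 2.57-fold fall (-1.36 ± 0.14, limma adjusted p = 1.9e-06). With Adβgal it ran from 11.28 to 12.08 around 11.74. Hhex, the delta cell transcription factor, read 10.83, 10.92, 10.7, 10.81 and 10.83 untreated and 9.98, 10.11, 9.6, 9.63 and 9.6 with AdNkx6.1, a 2.05-fold fall. Groups did not overlap in either gene. Etv1 fell 2.21-fold (-1.15 ± 0.18), and its other 4 probe sets fell by -1.21 to -1.93. Of the alpha cell factors, Irx1 fell 2.05-fold, by -0.67 in place of -1.03 with the mean of its probe sets, and Irx2 fell 1.92-fold. Pou3f4 fell 2.41-fold at adjusted p = 0.031, a call lost without AdNkx6.1 replicate 1 or 2 or untreated replicate 1, 4 or 5 (0.055 to 0.082). Dpp4, the protease of incretin hormones, fell 1.83-fold. The hormone genes, which read 14.06 to 14.52 untreated, near the top of the deposited range, had these values: Pyy fell 1.52-fold, Sst 1.2-fold and Ppy 1.18-fold, the last not called (0.054 to 0.055) without AdNkx6.1 replicate 1 or 4 or untreated replicate 4. Summed over the list, intensity was 93657 to 112538 on the AdNkx6.1 arrays and 122229 to 134326 untreated.

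**Figure D5:**
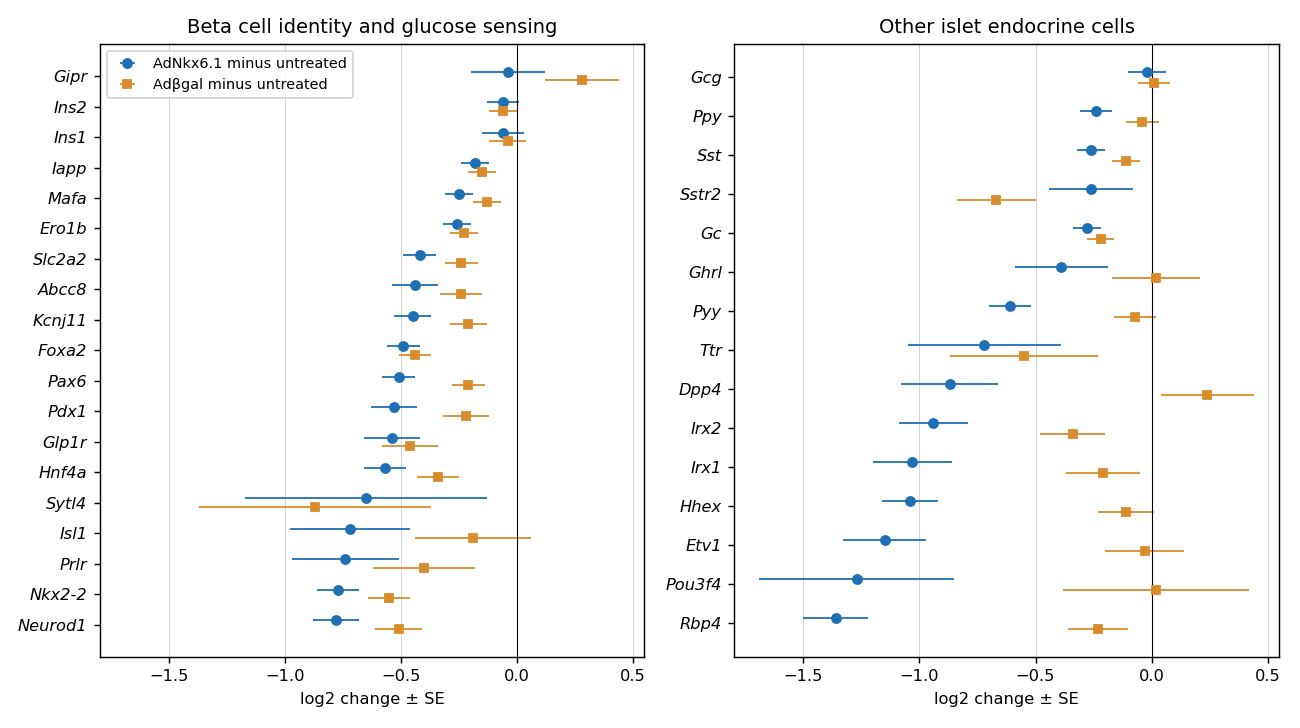
Log2 change ± SE of each measured member of the beta cell list (left) and of the list for other endocrine cells (right), for AdNkx6.1 minus untreated (blue circles) and Adβgal minus untreated (orange squares), which share the untreated arrays. In the left panel the symbols lie close for Foxa2 and Glp1r, and in the right panel they part for Rbp4, Etv1 and Hhex.

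Genes of the secretion machinery were more often lower than higher. Of 26 granule and exocytosis genes, 12 were lower and 2 higher, Vgf and the membrane fusion gene Stx1a (1.73-fold), with a median of -0.24. The priming factor Cadps fell 1.66-fold, the active zone scaffold Pclo 1.79-fold and the fusion protein Snap25 1.29-fold. With Adβgal 6 were lower and 0 higher, and in AdNkx6.1 against Adβgal 4 and 2. Of 19 ion channel genes, 7 were lower and 3 higher. Scn9a, a voltage-gated sodium channel of rodent beta cells and sensory neurons, read 9.29, 9.23, 9.14, 9.3 and 9.26 untreated and 7.91, 7.85, 7.7, 7.03 and 6.91 with AdNkx6.1. This was a 3.4-fold fall (-1.77 ± 0.21, limma adjusted p = 1.1e-05), and its Adβgal arrays, 8.58 to 9.54 around 9.1, spanned the untreated ones. The calcium channel subunit gene Cacnb2 fell 1.73-fold, while the inward rectifier Kcnj6 rose 2.12-fold and the cation channel gene Trpm4 2.02-fold. With the mean of its probe sets Kcnj6 rose by 0.54 in place of 1.09. Among 15 G protein-coupled receptors 10 were lower and 1 higher (median -0.67), with 4 and 0 with Adβgal and 1 and 1 in AdNkx6.1 against Adβgal. Without Adβgal replicate 5 the lower counts of the latter comparisons were 6 and 4. The muscarinic receptor Chrm3 fell 2.07-fold, the purine receptor P2ry1 2.05-fold and the adrenergic receptor Adra2a 1.64-fold. The exception was the adenosine receptor gene Adora1, at 6.81, 7.33, 6.97, 7.34 and 7.04 untreated and 9.09, 9.14, 8.84, 9.16 and 9.06 with AdNkx6.1. It rose 3.89-fold (1.96 ± 0.14, adjusted p = 6.5e-08) and lay at 6.8 to 7.61 around 6.99 with Adβgal.

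The viruses parted in lipid synthesis. Scd, the desaturase that makes monounsaturated fatty acids, read 9.35, 9.34, 8.53, 9.18 and 9.37 untreated, 6.61 to 8.16 around 7.94 with Adβgal, and 10.3, 10.42, 10.67, 10.53 and 10.54 with AdNkx6.1. It was 2.53-fold higher with AdNkx6.1 than untreated (1.34 ± 0.25, limma adjusted p = 0.0008), lower with Adβgal by -1.48 (adjusted p = 0.0026), and 2.82 apart between the viruses (adjusted p = 4.8e-07). None of the 3 groups overlapped. The triglyceride synthesis gene Dgat2 rose 3.53-fold and the elongase gene Elovl1 1.61-fold. Of 19 genes of fatty acid synthesis 6 were higher and 2 lower, with 0 and 3 with Adβgal and 9 and 0 in AdNkx6.1 against Adβgal. The 2 lower over untreated became 0 without AdNkx6.1 replicate 4 or 5 or untreated replicate 2, 3 or 4, and 1 without untreated replicate 1 or 5. In the cholesterol pathway 6 of 19 were higher and 6 lower. Those with the largest rises were the mevalonate kinase gene Mvk (2.84-fold, 1.5 ± 0.13, adjusted p = 6.4e-07) and the sterol reductase gene Tm7sf2 (2.06-fold). Hsd17b7 fell 1.69-fold, Nsdhl 1.51-fold and Idi1 1.46-fold. With Adβgal 11 of the 19 were lower and 0 higher, and 9 were higher and 1 lower in AdNkx6.1 against Adβgal.

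In glucose metabolism 7 of 20 glycolytic genes were higher and 1 lower, or 10 and 2 without Adβgal replicate 5. Of all genes 16.9% were higher and 13.8% lower, shares to set beside each list count of this paragraph. Aldoc rose 1.85-fold, the lactate dehydrogenase gene Ldha 1.42-fold and the glucose transporter gene Slc2a1 1.39-fold, and Pdk4, which blocks pyruvate entry to the citrate cycle, fell 2.02-fold (-1.01 ± 0.15, limma adjusted p = 9e-05). In oxidative phosphorylation 6 of 40 were higher, a share near the 16.9% of all genes, and 0 were lower, with a median of 0.06. The higher count was 11 in the fit of the 10 arrays alone, 12 without Adβgal replicates 4, 5 and 6, and 3 with arrays centred on their medians. Ndufb10 rose 1.38-fold at adjusted p = 0.027 and was not called at 0.088 with arrays centred on their medians. Its call was also lost without AdNkx6.1 replicate 3, 4 or 5 or untreated replicate 2, 3 or 4 (0.051 to 0.071). Genes normally silenced in beta cells, called disallowed, rose in 6 of 22 cases and fell in 2, against 11 and 5 in the fit of the 10 arrays alone. Of the 2, 1 was left on leaving out any 1 of the 10 arrays other than AdNkx6.1 replicates 1 and 2 and untreated replicate 5. Tst, a mitochondrial sulfurtransferase, read 7.76, 7.5, 7.82, 7.49 and 7.29 untreated and 10.29, 9.88, 10.06, 10.23 and 10.17 with AdNkx6.1, a 5.85-fold rise without overlap. Smad3, the signal transducer of TGF-beta, rose 2.96-fold, by 0.74 in place of 1.57 with the mean of its probe sets. Of 32 enzymes and binding proteins of steroids, retinoids and foreign compounds, 11 were higher and 5 lower, or 3 lower without AdNkx6.1 replicate 3 or 5 or untreated replicate 2 or 3. The retinoic acid carrier Crabp2 rose 2.84-fold and the glutathione synthesis gene Gclc 1.92-fold, while the retinaldehyde dehydrogenase Aldh1a1 fell 2.62-fold, from 8.39 ± 0.21 to 7 ± 0.43.

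Stress and inflammation lists, other than interferon, changed less. In the unfolded protein and integrated stress responses 3 of 38 were higher and 8 lower, with 16 lower when arrays were centred on their medians and 5 without AdNkx6.1 replicate 3 or 4. The thioredoxin inhibitor gene Txnip rose 2.2-fold and Wfs1, the Wolfram syndrome gene, 1.6-fold, the latter not called (0.067) after quantile normalization once more. The serine and asparagine synthesis genes Phgdh and Asns fell 1.39-fold and 1.36-fold, and the chaperone Hspa5 was not called (-0.1 ± 0.07), though it was at -0.18 with centring. Of 37 NF-κB, cytokine and chemokine genes 7 were higher, a share near the 16.9% of all genes. Only 2 were lower, a smaller share than the 13.8% of all genes. The counts were 11 and 5 in the fit of the 10 arrays alone. Without Adβgal replicate 5, 4 were lower. The adhesion molecule Icam1 rose 3.71-fold (1.89 ± 0.2), Cd40 2.82-fold and the dim gene Tnf 1.84-fold, by 0.49 in place of 0.88 with the mean of its probe sets. The cytokine gene Il15 fell 2.02-fold. Of 23 acute phase and liver-type genes 5 were higher and 3 lower, shares near the 16.9% and 13.8% of all genes. The counts were 8 and 6 in the fit of the 10 arrays alone. Saa3 rose 8.85-fold (3.15 ± 0.4) and the haem carrier Hpx 4.19-fold, while Apoh fell 3.02-fold and Serpina1 2.4-fold.

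Transporters and growth factor genes were mixed. The glutamine transporter Slc1a5 rose 2.55-fold, and the glutamate transporters Slc17a6 and Slc1a2 fell 2.07-fold and 1.75-fold, among 3 higher and 7 lower of 22. Of 29 growth factor and lactogen pathway genes 4 were higher, 7 in the fit of the 10 arrays alone, and 6 lower. Among all genes the shares were 16.9% higher and 13.8% lower. The activin subunit gene Inhbb rose 2.09-fold and Pdgfa 1.84-fold, and the receptor Fgfr2 fell 2.63-fold, by -0.4 in place of -1.4 with the mean of its probe sets.

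Markers of the other cells in an islet preparation were mixed. Of 29 acinar markers 3 were lower, the transcription factor genes Ptf1a and Bhlha15 and the serpin gene Serpini2, and 0 higher, with a median of -0.07. Ptf1a read 7.27, 8.65, 7.37, 7.79 and 6.66 untreated and 6.3, 5.9, 5.32, 5.17 and 5.18 with AdNkx6.1, a 3.93-fold fall (-1.97 ± 0.43, limma adjusted p = 0.0024). Groups did not overlap in Ptf1a, which is also among the largest falls picked by this same change. The digestive enzyme Cpa1 was not called at -1.36 (adjusted p = 0.062), and was called at 0.014 in the fit of the 10 arrays alone. Summed intensity of the acinar list was 41772 to 70427 untreated, 37445 to 90490 with AdNkx6.1 and 31276 to 168421 with Adβgal. Duct markers were higher in 5 of 19 cases and lower in 2, against 7 and 5 in the fit of the 10 arrays alone. Of all genes 16.9% were higher and 13.8% lower. The keratins Krt8 and Krt18, also expressed by islet cells, rose 1.67-fold and 1.55-fold, Krt19 was not called (0.42 ± 0.21, adjusted p = 0.14), and Car2 fell 2.06-fold. The summed intensity of the duct list, 101021 to 107834 with AdNkx6.1, did not overlap the 82593 to 88311 untreated. Bright members such as Krt8 and Krt18 weigh most in this sum. The mean log2 of the list relative to untreated did overlap, at -0.03 to 0.2 with AdNkx6.1 and -0.07 to 0.07 untreated. Of 19 endothelial markers 0 were called by limma and 1 had an unadjusted p under 0.05, and 1 was called without Adβgal replicate 5. In the fit of the 10 arrays alone 4 were higher and Cldn5 was lower (-1.54, adjusted p = 0.0098). Their sums overlapped, at 12614 to 14866 untreated and 11839 to 22549 with AdNkx6.1. Among 29 leukocyte markers 1 was higher and 4 were lower, the latter near the 13.8% of all genes. The T cell kinase Lck rose 2.17-fold. Laptm5 was 1.72-fold lower, and Csf1r, Tyrobp and Cd4 were lower by -0.54 each. Sums were 21969 to 25736 untreated and 17632 to 27965 with AdNkx6.1. Of 26 stellate and fibroblast markers Timp1 was higher and the proteoglycan gene Dcn lower (1.31-fold), with sums of 100876 to 118685 and 109528 to 120666. Timp1 lost its call without AdNkx6.1 replicate 2, 3, 4 or 5 or untreated replicate 3, 4 or 5. What these cells contributed to the other results was not tested.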

How the data were processed

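Total RNA of 16 islet cultures was measured on arrays, 1 per sample. Per the submitters' processing notes, the authors used RMA, and the deposited values are probe set intensity on a linear scale from 6.25 to 35764.6. The RMA version and the return to a linear scale are not given in the sources used here. The log2 was taken with no pseudocount and no further normalization. Of 31099 probe sets, 57 controls were left out, and of the rest 20826 had 1 gene symbol in the platform annotation, 436 several and 9780 none. For each of 14217 genes, 4525 of them with several probe sets, the one with the highest mean log2 over the 16 arrays was kept.

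The 3 groups were fitted together with limma 3.58.1 (R 4.3.3; lmFit, contrasts.fit, eBayes), with 2-sided p-values and Benjamini-Hochberg adjustment over all 14217 genes. Single genes had an exact permutation test (scipy 1.17.1). On data simulated for AdNkx6.1 against untreated with 14217 genes, the fit recovered 56% of 50 genes changed 1.5-fold and 94% of 50 changed 2-fold. The simulated noise was independent between genes, and far fewer genes were changed than the 4360 called in the data. The adjusted threshold was therefore stricter there, and these shares do not give the sensitivity of the comparison reported here. The number of arrays limits the precision. The labels state 5 replicates per condition, and 6 Adβgal arrays were used.

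The genes and the 32 gene lists were chosen with earlier results of these data known. Named genes are Nkx6-1, Nr4a1 and Nr4a3 from the series title, the 15 highest and 15 lowest called changes without placeholder symbols, each list's core members and up to 6 members with its smallest p, and Prm1. Not all were printed. Rsad2, Igtp, Ifitm1, Ifih1, Ifnb1, Foxm1, Myc, Cdkn1b, Klf4, Egr1, Iapp, Isl1, Pou3f4, Dpp4, Pclo, P2ry1, Aldoc, Wfs1, Prlr, Sp110, Bhlha15, Timp1, Csf1r, Tyrobp and Cd4 fall outside that rule or complete a small count, and were chosen after their values were seen. Promoters came from RefSeq (GRCr8). Alternatives were the 10 arrays alone, a replicate block, quantile normalization once more, centring on array medians, the mean of a gene's probe sets, genes with a mean log2 of at least 6, eBayes with trend and robust, Adβgal replicates 4, 5 and 6 left out together, each of the 10 arrays left out in turn and, added after seeing the data, Adβgal replicate 5 left out.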

Additional observations from a re-analysis of the deposited data

Results flagged for a closer look

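The untreated and AdNkx6.1 arrays of the named genes made 354 groups of 5, and the Adβgal arrays were not screened in this way. Of these groups, 16 held 1 array far from the rest, in 15 genes, and chance gives about 1 in 20 groups. Untreated replicate 5 stood apart upward among the untreated arrays in Slfn4 at 5.76, Oas1a at 7.27 and Lck at 7.01, and downward in Tchh at 4.15. Among the other untreated arrays, replicate 1 stood apart in Igtp at 10.11 and Elovl1 at 11.51, replicate 2 in Pidd1 at 8.72, and replicate 3 in Mcm6 at 10.11, Nkx2-2 at 12.07 and Scd at 8.53. Among the AdNkx6.1 arrays, replicate 1 stood apart in Lck at 8.5, replicate 2 in Elmod1 at 7.62, Tk1 at 10.05 and Serpina1 at 10.83, and replicate 3 in Etv1 at 12.5 and Pyy at 13.79. All 15 genes were called in AdNkx6.1 against untreated.

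Probe sets with several gene symbols or none entered no comparison by gene. Of 10216 such probe sets, 1601 were called between AdNkx6.1 and untreated (15.7%), 573 higher and 1028 lower, with p-values adjusted over all probe sets other than controls.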

How the results depend on the processing

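Through the alternatives 177 named genes were followed, of which 158 were called in AdNkx6.1 against untreated. Of these, 149 kept their call under every alternative that measured them, and 9 lost it under at least 1. Timp1 is not in these counts and also lost its call on leaving out some arrays. The count of lower genes was 3154 with arrays centred on their medians, in place of 1956. The 10 arrays alone gave 6250 calls in place of 4360, 6144 were called without Adβgal replicates 4, 5 and 6, and 5069 without Adβgal replicate 5, an alternative chosen after seeing the data. Leaving out each of the 10 arrays in turn gave 2039 to 2370 genes higher and 1519 to 1884 lower. Whether replicate numbers pair the arrays was not settled. Same-numbered deviations correlated at -0.19 to 0.25, and some arrays but not all correlated best with their own number. The replicate block gave 3811 calls, 2123 higher and 1688 lower. Among named genes, signs turned only in some that were not called. After quantile normalization once more these were Nr4a2 at -0.03, Foxm1 at -0.08 and Gcg at 0. On leaving out arrays changes ranged from -0.05 to 0.01 in Ifitm1, -0.15 to 0.06 in Myc, -0.1 to 0.01 in Ins1 and -0.05 to 0.02 in Gcg. When a gene's probe sets were averaged, 16 of the 4360 called genes changed sign. Among named genes, 1 group's mean log2 lay under 5 in Ugt2b15, Ly6i, Prm1, Hsd17b2, Coch, Slc5a5, Tchh, Fga and Slfn4, which limits their folds.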
